A study of Mus musculus with 9 samples.

Results

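The protein 4.1 family comprised the 7 rows of the deposited mouse table named Epb41, Epb41l1, Epb41l2, Epb41l3, Epb41l4a, Epb41l4b and Epb41l5, of 18275 genes in all. The members were chosen by gene name, but the family was selected with the genotype differences of these same libraries known, so the values of its members in that contrast are a description and not independent evidence. RNA was measured in the hippocampus of male mice aged 11 to 15 weeks, 1 library per animal, all labelled C57BL/6N. The Nestin;BrafKE/+ group (n = 4) carried one copy of the K499E knock-in allele of Braf, a kinase of the RAS/MAPK pathway, switched on by Nestin-Cre, which acts in neural stem cells and therefore reaches both neurons and glia. The Braf+/+ group (n = 5) held littermates labelled WT, and the labels do not say whether these animals carried Cre. The names of the libraries formed 3 series (A, B and C), which the labels do not explain. Series A held mutant replicate 1 and control replicates 1, 2 and 3, series B held mutant replicates 2 and 3 and control replicate 4, and series C held mutant replicate 4 and control replicate 5.

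Protein 4.1 is the founding member of a family of membrane skeleton proteins that share a FERM domain, a fold that docks onto the cytoplasmic tails of membrane proteins. In red blood cells it fastens the spectrin and actin meshwork to the membrane. Neurons and glia express relatives of it, which hold receptors, adhesion molecules and channels at defined places on the cell surface. Epb41 encodes the red cell form 4.1R, Epb41l1 the neuronal form 4.1N, Epb41l2 the widely expressed 4.1G and Epb41l3 the form 4.1B, found along axons. Epb41l4a, Epb41l4b and Epb41l5 are more distant relatives, the last of which binds the Crumbs polarity complex.

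Of the 7 members, Epb41 alone passed the test between genotypes, and its level in the mutants was 50.04% of that in the controls. The other 6 members lay between 95.3% and 115% of the control mean. Values are normalised counts as deposited, which the authors had scaled and adjusted for batches, and which summed to between 19551312 and 20091532 per library. A gene was tested where its mean was at least 10, which left 16196 genes and all 7 members. Fold changes come from limma on log2(value + 1) with genotype and series as terms, and p-values were adjusted across the whole set of tested genes after Benjamini and Hochberg, with a threshold of 0.05.

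Epb41 (ENSMUSG00000028906) lies on the minus strand of chr4:131650724-131802632 in GRCm39. The annotation gives it 33 transcripts with 15 start positions, and the table has 1 value for them all, so that a change in one transcript cannot be told apart from a change in all of them. Since Epb41 was the member that passed the test, the 3 windows around its RefSeq starts, each reaching from 250 bases before to 50 after a start, are shown 5′ to 3′ on the gene's strand. The sequences are from RefSeq on GRCm38.p6, and each matched GRCm39 at exactly 1 place, the first at chr4:131802575-131802874, the second at chr4:131799359-131799658 and the third at chr4:131776340-131776639. Capitals mark matches, on either strand, to the motifs searched, which were the cAMP response element TGACGTCA, the AP-1 motif TGANTCA, the ETS motif CCGGAAG, the GC box GGGCGG and the GATA motif AGATAA.
Epb41 start 1: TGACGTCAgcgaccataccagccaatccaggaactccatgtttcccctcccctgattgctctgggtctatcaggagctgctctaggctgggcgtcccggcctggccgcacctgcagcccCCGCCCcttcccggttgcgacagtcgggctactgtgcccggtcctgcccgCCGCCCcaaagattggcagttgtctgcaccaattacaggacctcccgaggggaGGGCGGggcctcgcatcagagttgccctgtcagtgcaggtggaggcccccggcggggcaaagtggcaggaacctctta
Epb41 start 2: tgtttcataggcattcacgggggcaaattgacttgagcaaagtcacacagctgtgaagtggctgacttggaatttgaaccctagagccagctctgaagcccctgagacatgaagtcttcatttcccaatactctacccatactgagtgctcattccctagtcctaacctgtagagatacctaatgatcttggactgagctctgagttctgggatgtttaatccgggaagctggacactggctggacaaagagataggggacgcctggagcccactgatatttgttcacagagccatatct
Epb41 start 3: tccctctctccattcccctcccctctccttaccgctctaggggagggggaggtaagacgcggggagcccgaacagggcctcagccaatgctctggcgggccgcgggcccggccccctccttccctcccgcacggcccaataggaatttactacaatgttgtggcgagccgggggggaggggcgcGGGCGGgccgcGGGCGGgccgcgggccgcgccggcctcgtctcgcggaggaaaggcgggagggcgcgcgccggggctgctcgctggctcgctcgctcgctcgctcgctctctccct
The start of the first window lay 8 bases inside the annotated 5′ end of the gene. It opened with a cAMP response element, a motif that 1.79% of 32851 RefSeq promoter windows of the same length held, and contained 3 GC boxes, a motif held by 35.7% of them. The second window, with its start 3224 bases inside the gene, had a GC content of 48.0% and no match to any of the 5 motifs. The third, 26243 bases inside, had a GC content of 74.0% and 2 GC boxes. No AP-1, ETS or GATA match lay in the Epb41 windows, against 7.81%, 8.86% and 11.2% of all windows. These matches are a description of the letters, and the table does not give the level from each start. RefSeq windows were examined for 5 of the 7 members, with 11 starts between them. Windows of Epb41l4a and Epb41l5 were not examined, so nothing is said here of their starts.

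Epb41 was the family member with the clear genotype difference. Its normalised counts were 258, 322, 285 and 303 in mutant replicates 1 to 4. In control replicates 1 to 5 they were 629.9, 632, 558, 538 and 558. Every mutant library lay below every control library, and the highest mutant value was 322 against a lowest control value of 538. Mutant hippocampus had a mean of 292 ± 27.2 (SD, n = 4), and control hippocampus one of 583 ± 44.3 (SD, n = 5). In the limma fit Epb41 fell by 0.998 as a log2 fold change (SE 0.0987, 95% interval -1.22 to -0.78, adjusted p = 0.00169). Taken series by series, mutants minus controls came to -1.23 for A, -0.83 for B and -0.88 for C on the log2 scale, the same sign in all 3. Epb41 had the 7th smallest p of 16196 genes and the 29th lowest log2 fold change among the 220 genes called lower. Its rank by p was 5th to 29th over the alternatives, 27th without control replicate 5, 23rd without mutant replicate 4, 12th without control replicate 2 and 29th with a replicate block in place of the series. Across 20 alternative settings, 9 of which left out a library, Epb41 passed the threshold each time, with a log2 fold change between -1.09 and -0.85. Series C held 1 mutant and 1 control, so leaving out either gave the same estimate, -1.04, and those fits are not separate checks of it. In bulk tissue, fewer cells that express a gene and less of its RNA per cell cannot be told apart.

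**Figure D1:**
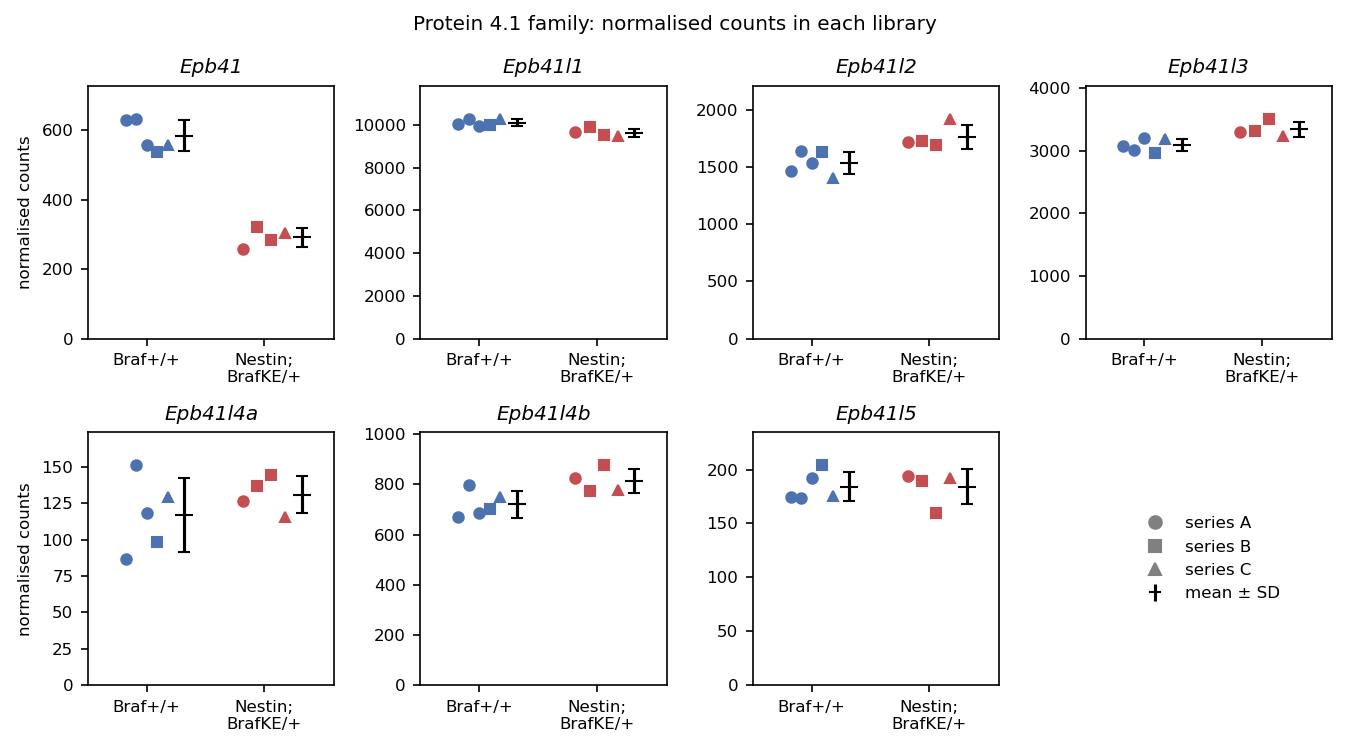
Normalised counts of the 7 protein 4.1 genes (y axis, from 0) in each Braf+/+ and Nestin;BrafKE/+ library (x axis), with point shape for the series of library names and bars for mean ± SD. The 4 mutant libraries of Epb41 sit between 258 and 322, below all 5 controls, while the scatter of Epb41l4a, Epb41l4b and Epb41l5 overlaps between genotypes.

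**Figure D2:**
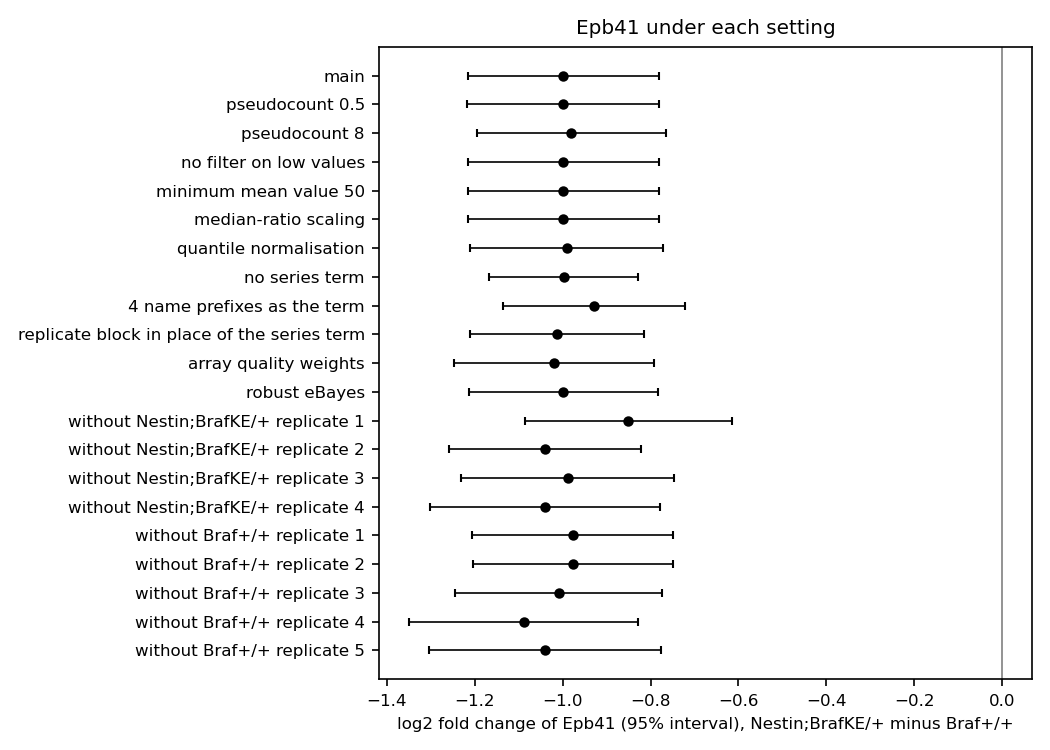
Log2 fold change of Epb41 (x axis, points with 95% intervals) in the fit described and under 20 alternatives, 1 per line. Each interval lies below 0, and the estimate nearest to 0 is -0.85, without Nestin;BrafKE/+ replicate 1.

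Epb41l1, Epb41l2 and Epb41l3, the closest relatives of Epb41, did not pass the test. For Epb41l1, which in neurons binds AMPA-type glutamate receptors, the mutant libraries gave 9651, 9891, 9514 and 9483 normalised counts. Its control libraries gave 10056, 10263, 9962, 9973 and 10273. The groups did not overlap, yet the means differed by little, 9635 ± 186 (SD, n = 4) against 10105 ± 153 (SD, n = 5). The log2 fold change was -0.07 (SE 0.042, 95% interval -0.16 to 0.023, adjusted p = 0.420 by limma).

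Epb41l2 read 1719, 1732, 1697 and 1923 in the mutant libraries. In the controls it read 1472, 1642, 1535, 1630.0 and 1410.2. The mutants again lay apart from the controls, this time above them. Its mean was 1768 ± 105 (SD, n = 4) in mutants and 1538 ± 100.1 (SD, n = 5) in controls, with a log2 fold change of 0.20 (SE 0.0702, 95% interval 0.046 to 0.36, unadjusted p = 0.0156, adjusted p = 0.158 by limma). The difference within series C, 0.45 on the log2 scale, was the largest, against 0.15 in A and 0.073 in B. Without mutant replicate 4 or without control replicate 5, the libraries of series C, the log2 fold change was 0.11 (adjusted p = 0.399 and 0.397). Without the series term, Epb41l2 passed the threshold (adjusted p = 0.0339), and over the other alternatives it did not.

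Epb41l3, whose product sits beside the adhesion complexes of myelinated axons, gave 3309, 3313, 3511 and 3242 normalised counts in mutants. Its 5 controls gave 3079, 3020.5, 3209, 2973 and 3191. All 4 mutants exceeded all 5 controls. The log2 fold change was 0.11 (SE 0.0509, 95% interval -0.00077 to 0.22, adjusted p = 0.275 by limma), and the means were 3344 ± 116 (SD, n = 4) and 3094 ± 103 (SD, n = 5). Without control replicate 4 the log2 fold change was 0.065.

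The more distant relatives overlapped between genotypes. Epb41l4b had mean normalised counts of 812 ± 48.2 (SD, n = 4) in mutants, with values of 824, 772, 876 and 778. The controls had a mean of 720 ± 52.6 (SD, n = 5), with values of 669.7, 797, 684, 701 and 751. The groups overlapped, with 2 of the 4 mutant values higher than any control, and the estimate was a log2 fold change of 0.17 (SE 0.0797, 95% interval -0.0022 to 0.35, adjusted p = 0.277 by limma). Epb41l4a was the scarcest member and the most variable, with 116 to 145 normalised counts in mutants and 86.4 to 151 in controls. Its coefficient of variation in controls was 21.8%, against 1.51% for Epb41l1. The log2 fold change of Epb41l4a was 0.19 (95% interval -0.23 to 0.60, adjusted p = 0.639 by limma), and single libraries moved it widely. It was 0.014 without control replicate 4, 0.11 without control replicate 1, and 0.31 without mutant replicate 4 or without control replicate 5. For Epb41l5 the means were 184 ± 16.2 (SD, n = 4) in mutants and 184 ± 13.4 (SD, n = 5) in controls. The 95% interval of its log2 fold change, -0.26 to 0.26, bounds the difference that these libraries allow.

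In counts, 1 of 7 members passed the adjusted threshold, and it was lower in the mutants, while 2.88% of all genes tested passed in either direction and 1.36% were lower. An unadjusted p under 0.05 was found for 2 of 7 members, Epb41 and Epb41l2, against 18.5% of all genes. The groups did not overlap for 2 members that were lower in mutants, Epb41 and Epb41l1, and for 2 that were higher, Epb41l2 and Epb41l3, against 8.13% and 7.62% of all genes. Because the family was proposed from this contrast, nothing is read from these shares. The median log2 fold change was 0.11 over the members and 0.00033 over all genes tested.

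**Figure D3:**
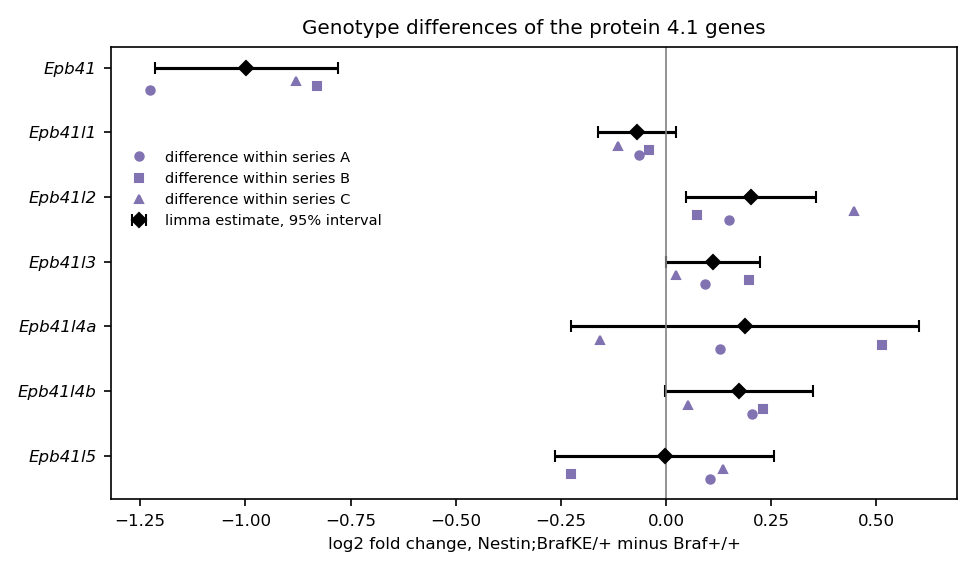
Log2 fold changes of the 7 members (x axis, Nestin;BrafKE/+ minus Braf+/+), with diamonds and bars for the limma estimate and its 95% interval and coloured points for the difference of means within each series. Epb41 at -0.998 stands away from the other 6 members, which lie between -0.07 and 0.20.

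Levels of different genes were compared per kilobase of exon, as the union of all annotated exons, since longer genes collect more counts. On this scale the controls had 670.4 ± 10.1 normalised counts per kilobase of Epb41l1 (SD, n = 5). Epb41l3 followed with 189 ± 6.31, Epb41l2 with 104 ± 6.75 and Epb41l4b with 78.3 ± 5.72 (SD, n = 5 each). Epb41 had 33.9 ± 2.58 per kilobase, Epb41l5 12.2 ± 0.893 and Epb41l4a 7.51 ± 1.64 (SD, n = 5 each). The neuronal form was thus the most abundant member and the red cell form ranked 5th of 7. In mutants Epb41 stood at 16.97 ± 1.58 per kilobase (SD, n = 4), beside 12.2 ± 1.08 for Epb41l5 (SD, n = 4).

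Per kilobase of the union of exons, the order held in 9 of 9 libraries for each of the 6 neighbouring pairs. An exact sign-flip permutation test over the 9 libraries, two-sided, gave p = 0.00391 for each pair, the smallest value it can give, and 0.00391 after adjustment over the 6 pairs. The pairs and their direction came from the mean levels in these same libraries, with both genotypes pooled. The p-values are therefore not independent evidence for the order. Nor do they measure how steady it was, since the test gives its smallest value whenever all 9 libraries agree in direction. The SD of the log2 ratio ran from 0.109 to 0.638 over pairs with the same p. Epb41l1 exceeded Epb41l3 by 1.75 ± 0.109 on the log2 scale per length (SD, n = 9), and Epb41l2 exceeded Epb41l4b by 0.42 ± 0.127. The ratio of Epb41 to Epb41l5 varied more, between 0.22 and 1.67 on the log2 scale, with the mutants at the low end. The top of this order did not depend on the length used, and its low end did. With the longest transcript or the longest coding sequence as the length, the pairs from Epb41l1 down to Epb41 kept their order in 9 of 9 libraries. Epb41 then exceeded Epb41l5 in 8 of 9 libraries, in all 5 controls and in 3 of 4 mutants, under either length. Epb41l5 exceeded Epb41l4a in 5 of 9 libraries per length of the longest transcript (exact sign-flip permutation p = 0.832) and in 9 of 9 per length of the coding sequence. The order of Epb41, Epb41l5 and Epb41l4a within a library therefore depended on the length used.

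Summed per kilobase of the union of exons, the family reached 1088 ± 8.85 normalised counts in mutants (SD, n = 4) and 1095 ± 17.6 in controls (SD, n = 5), ranges that overlap. Epb41 made up 1.56% ± 0.140 of that sum in mutants and 3.10% ± 0.222 in controls. Epb41l1 made up 58.7% ± 0.828 and 61.2% ± 0.462.

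**Figure D4:**
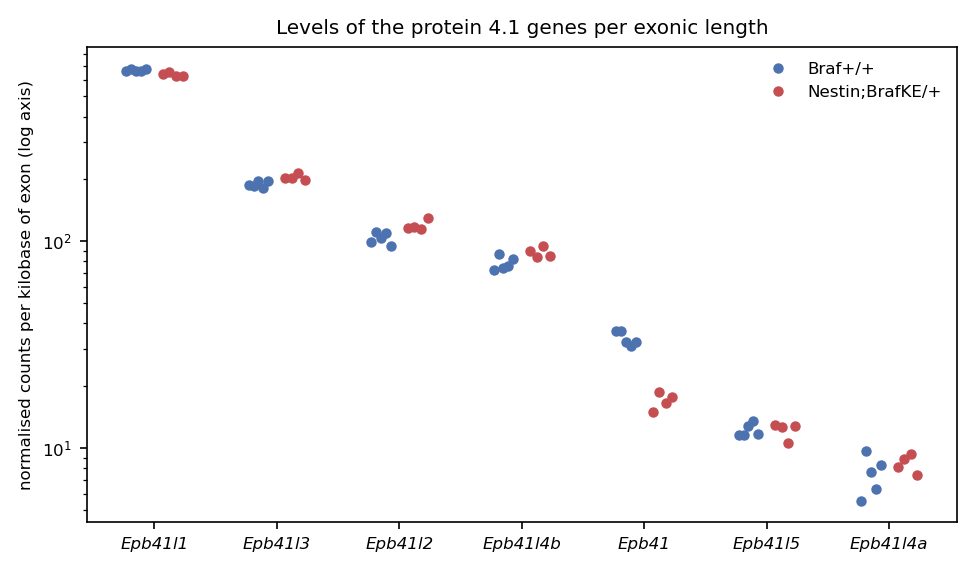
Normalised counts per kilobase of exon (y axis, log scale) of the 7 members in each library, ordered by level, with Braf+/+ libraries on the left and Nestin;BrafKE/+ libraries on the right of each gene. On this length Epb41l1 is highest and Epb41l4a lowest, and Epb41 shows the one wide gap between genotypes.

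To see whether members could share reads, their annotated transcripts were compared. Of the 21 pairs of members, 5 shared any stretch of 31 bases, 3 such stretches at most, and none of those pairs included Epb41. The longest coding sequences of Epb41, Epb41l1, Epb41l2 and Epb41l3 were 69.2% to 72.3% identical over the aligned bases, and Epb41 and Epb41l2 aligned over the longest stretch, 2595 bases or 86.0% of the shorter sequence. Epb41l4b and Epb41l5 were 70.4% identical, and the other pairs 61.2% to 66.9%. One tested gene overlapped a member, Epb41l4aos on the strand opposite Epb41l4a, whose fold change was 0.32 in log2 units (adjusted p = 0.304 by limma). The libraries were stranded, but the counting setting is not given in the sources used here, and the values of Epb41l4a are uncertain to that extent.

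Genes beside Epb41 did not pass the test. Within 1 Mb of either end, 32 other genes were tested, 0 passed the limma threshold, and 7 had an unadjusted p under 0.05, a share to be set beside the 18.5% of all genes. The log2 fold change was below 0 for 16 of the 32, with a median of -0.0071 and a range of -0.81 to 0.43. The nearest tested gene on the 3′ side, Tmem200b, ended 273 bases from Epb41 and had the lowest value, -0.81 (SE 0.303, adjusted p = 0.184 by limma), at a mean of 19.5 normalised counts. On the 5′ side the nearest was Gm37711, 29509 bases away, at -0.30 (SE 0.159, adjusted p = 0.354 by limma). Next on that side was Oprd1, 35405 bases away, at -0.42 (unadjusted p = 0.00633, adjusted p = 0.104 by limma). Beyond Tmem200b on the 3′ side came Gm12992 at -0.32, Srsf4 at 0.016 and A930004J17Rik at -0.45 (unadjusted p = 0.0482 by limma). Among the tested genes up to A930004J17Rik, 40176 bases away, Srsf4 alone was not lower. A link between these values and that of Epb41 was not tested.

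**Figure D5:**
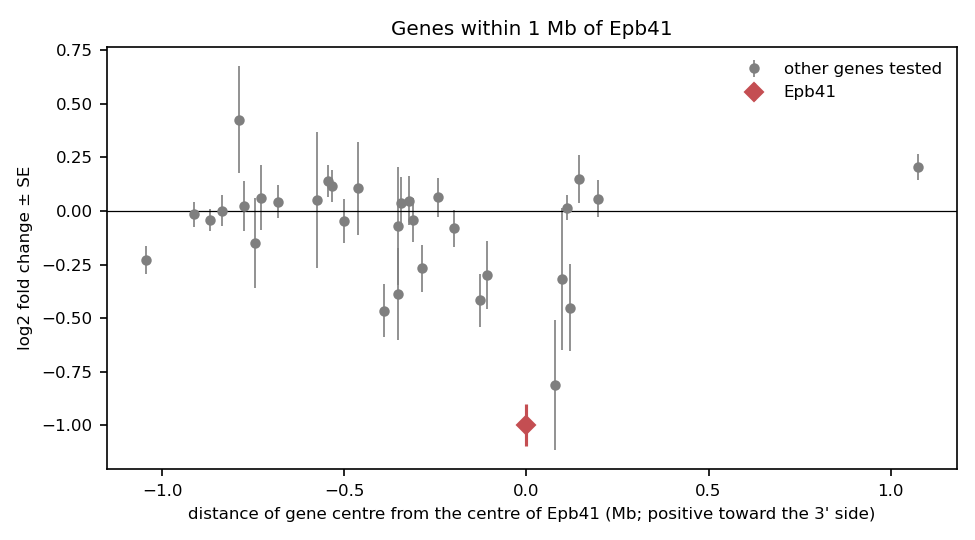
Log2 fold change ± SE (y axis) of Epb41 and of the 32 tested genes within 1 Mb of its ends, by the distance between gene centres in Mb (x axis). Epb41 lies at -0.998, the neighbours between -0.81 and 0.43.

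Partners of the family were taken as 5 lists, chosen with earlier results of these data known, and their counts stand beside 2.88% of all genes past the threshold and 18.5% at an unadjusted p under 0.05. The spectrin-actin skeleton list had 20 of its 22 genes tested, 10 higher and 10 lower, with a median log2 fold change of -0.0043 and 7 at an unadjusted p under 0.05. Tmod1, which caps the slow-growing end of actin filaments, passed, with 745 ± 58.9 normalised counts in controls (SD, n = 5) and 566 ± 35.5 in mutants (SD, n = 4). The limma estimate was -0.40 on a log2 scale (SE 0.0863; adjusted p = 0.0389 by limma). It passed in 1 of 9 fits that left out a library, the one without control replicate 1, with adjusted p up to 0.217. With all libraries kept, Tmod1 failed with 4 name prefixes in place of the series and with array quality weights.

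Of the 20 membrane proteins and adaptors that bind protein 4.1 forms, 18 were tested, 10 higher and 8 lower, and 0 passed in limma, with 4 at an unadjusted p under 0.05. Gria1, the AMPA receptor subunit bound by 4.1N, was at 0.035 on the log2 scale (adjusted p = 0.731 by limma), and Gypc, the glycophorin that anchors 4.1R, at 0.063 (adjusted p = 0.925 by limma). All 9 axonal proteins associated with 4.1B were tested, 3 higher and 6 lower, with 0 past the threshold in limma, 4 at an unadjusted p under 0.05 and a median log2 fold change of -0.13. Among them Cntnap1, the paranodal Caspr, was at -0.16 (adjusted p = 0.253 by limma), and Cntnap2, the Caspr2 of the juxtaparanode, at 0.066 (adjusted p = 0.787 by limma).

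The Crumbs polarity list, which includes the partners of Epb41l5, had 16 of 17 symbols tested, 5 higher and 11 lower, and 2 with an unadjusted p under 0.05. Lin7c, a scaffold protein of that complex, passed at -0.27 (SE 0.0555, adjusted p = 0.0322 by limma), from 2517 ± 108 normalised counts in controls (SD, n = 5) to 2093 ± 76.6 in mutants (SD, n = 4). It passed in 4 of 9 fits that left out a library, and failed without mutant replicates 1, 2 or 3 or control replicates 1 or 4, with adjusted p up to 0.175. Lin7c also failed with 4 name prefixes in place of the series and with array quality weights. Of 28 other FERM domain genes, 11 were higher and 17 lower, and 11 had an unadjusted p under 0.05, where 18.5% of all genes did. Frmd8, which binds the rhomboid-like iRhom proteins, rose, by an estimated log2 0.51 (SE 0.115, adjusted p = 0.0439 by limma), from 395 ± 59.1 (SD, n = 5) to 558 ± 22.6 (SD, n = 4). It passed in 1 of 9 fits that left out a library, the one without control replicate 3, with adjusted p up to 0.221. Frmd8 failed under the name prefixes and the array quality weights as well. All genes tested had a median of 0.00033, beside medians of 0.025 for the membrane partners, -0.027 for the Crumbs list and -0.035 for the FERM list.

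Markers of the tissue's cell types moved with genotype in part. The counts for their 14 lists, here and in the next paragraph, stand beside shares over all genes. Of all genes tested, 2.88% passed the threshold and 18.5% had an unadjusted p under 0.05. The groups did not overlap for 8.13% that were lower in mutants and 7.62% that were higher. Oligodendrocyte markers were higher in mutants for 10 of 10 genes, with Mog, Mag, Mobp and Cldn11 past the threshold, and their summed level lay at 129016 to 139159 normalised counts in mutants and 94429 to 114552 in controls. Of 10 astrocyte markers 8 were higher, with Aldoc, Gfap and S100b past the threshold, and sums of 113031 to 126682 against 105696 to 119460. A sum follows its most abundant genes. In the astrocyte list this was Slc1a2, with a mean of 65668 in controls and 63194 in mutants. Oligodendrocyte precursor markers were higher for 5 of 6, including Cspg4, with sums of 3813 to 4069 against 3128 to 3566. Red blood cell markers, the cell in which 4.1R is best known, were higher for 5 of 5, with 0 past the threshold in limma and 4 at an unadjusted p under 0.05, and sums of 3489 to 6184 against 3180 to 3579, while Epb41 was lower. Several of these calls depended on single libraries. With each of the 9 libraries left out in turn, Mag passed in 1 fit, the one without control replicate 3, Mog and S100b in 4, Mobp in 5, Cldn11 in 6, Aldoc and Gfap in 7 and Cspg4 in 9. All but Cspg4 failed without mutant replicate 1 and without control replicate 4. Mog, Mag, Mobp, Cldn11 and S100b also failed without mutant replicate 3, and all of these but Cldn11 without mutant replicate 2. S100b failed without control replicate 1 and Mog without control replicate 2 as well. With all libraries kept, Mag, Mobp and S100b failed with 4 name prefixes in place of the series and with array quality weights. Mog failed with the weights too, and Mobp with the robust form of the limma test. The part of these lists in the values of the members was not tested.

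Neuronal and hippocampal markers had a value above 0 in every library. So did all 18275 genes of the table, so this carries no information on the tissue. Excitatory markers were higher for 5 of 8. They summed to 137418 to 161513 in mutants and 127482 to 144192 in controls, with Itpka higher and Neurod2 lower past the threshold. Camk2a was the most abundant of them, with a mean of 90703 in mutants and 85972 in controls. Inhibitory markers were higher for 7 of 8, with Vip lower. They summed to 16959 to 18857 in mutants and 14964 to 16753 in controls. Npy alone was past the threshold, with a mean of 1071 in mutants and 531 in controls. Gad1, the most abundant of them, had means of 6161 and 6001, and Sst of 4380 and 3722. Hippocampal field markers summed to 13614 to 14731 and 11567 to 12368, with Wfs1 and Fibcd1 higher and Dsp lower. Of these 8 markers, 5 were higher and 3 lower, namely Prox1, Dsp and Amigo2. The sum followed Wfs1 (mean 3635 in mutants, 2377 in controls) and Fibcd1 (3937 and 2991). Of the remaining lists, 7 of 8 microglial, 6 of 8 endothelial, 6 of 6 mural, 1 of 5 ependymal, 1 of 4 thalamic and 4 of 6 meningeal markers were higher in mutants, with Col1a1 of the last past the threshold. Npy and Wfs1 passed in 9 of 9 fits without a library, Neurod2 in 8, Itpka and Dsp in 7, and Fibcd1 and Col1a1 in 6. Those 5 genes failed without mutant replicate 1 and, apart from Neurod2, without control replicate 4, and Fibcd1 and Col1a1 also without mutant replicate 3. Itpka failed with 4 name prefixes in place of the series as well. Choroid plexus markers were lower for 8 of 8, with 0 past the threshold in limma and 1 at an unadjusted p under 0.05. They summed to 1388 to 24570 in mutants and 4577 to 392430 in controls, the highest in control replicate 2 and the next, 114435, in control replicate 4. Epb41 in these control libraries was 632 and 538 normalised counts, the highest and the lowest of the 5 controls. It passed the threshold with each left out in turn, but each of those fits kept the other library. The part of choroid plexus in the values of Epb41 was not tested.

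The genes whose log2 values followed each member most closely over the 9 libraries were taken from 11881 genes with a mean of at least 100. For Epb41 these were Mfsd4a (Pearson r = 0.992), Il1r1 (r = 0.992) and Prkce (r = 0.991). After subtraction of the group means r was 0.886, 0.873 and 0.777. For Epb41l1 they were Tgs1, Smad3 and Lrrc8c (r = 0.978, 0.977 and 0.969), for Epb41l2 Eogt, Sh2d1a and Acox3 (r = 0.986, 0.976 and 0.976), and for Epb41l3 Gpr37l1, Fgf11 and G6pc3 (r = 0.996, 0.985 and 0.982). For Epb41l4a they were Pea15a, Dpm3 and Adcy3 (r = 0.981, 0.973 and 0.969), for Epb41l4b Fat3, 2010204K13Rik and Trim62 (r = 0.984, 0.975 and 0.971), and for Epb41l5 Naf1, Ttc27 and Zfp579 (r = 0.982, 0.973 and 0.971). Within the family, r was highest for Epb41 and Epb41l1, at 0.871 (within groups 0.394). It was lowest for Epb41 and Epb41l3, at -0.800 (within groups -0.206). Within groups, r was highest for Epb41l4a and Epb41l4b, at 0.793 (over all libraries 0.786). It was lowest there for Epb41l2 and Epb41l3, at -0.715 (over all libraries 0.349). These are descriptions over 9 libraries that share genotype, series and scaling, picked as the highest or lowest of many.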

How the data were processed

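Hippocampal RNA of 4 Nestin;BrafKE/+ and 5 Braf+/+ mice was sequenced with stranded mRNA libraries, and groups followed the labels. The authors trimmed reads with Trim Galore, used STAR for alignment to GRCm39 and Salmon for quantification, corrected for batches (not named) and made their comparisons with DESeq2. The deposited signal is 1 normalised count per gene and library. Its values were whole multiples of a step in each library (tolerance 0.01 of a step), but after adjustment these are not reads, so the depth is unknown, no count model was used and precision rests on the spread between libraries. The batch adjustment preceded the test and may have reduced that spread, so standard errors and p-values could be too small, which was not tested. Fits without a library also used values adjusted with that library present.

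The test was limma (version 3.58.1, under R 4.3.3, with a mean-variance trend and a pseudocount of 1), run where the mean reached 10, with genotype and series as terms, two-sided, with Benjamini-Hochberg adjustment over all genes. A log2 fold change on this scale understates low genes. Simulated data with known changes were used to check that the fit ran as intended. They held independent noise without series effects or batch adjustment, so they do not show how the test behaves on the deposited values. The 9 libraries and all columns were used. Gencode vM39 supplied coordinates and lengths, and 99.6% of tested identifiers were found in it.

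Members and lists (5 of partners, 14 of cell type markers) were chosen with earlier results of these data known. The genes named were the members, list genes past the threshold, and the 3 genes most correlated with each member. Gria1, Gypc, Cntnap1 and Cntnap2 and the nearest neighbours of Epb41 were named in addition, after their values were seen. Same-numbered replicates were not paired: their deviations from group means correlated at -0.39 to 0.415 over genes. There were 11 alternative settings and 9 fits without 1 library. Leaving out either library of series C gave the same estimate for each member.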

Additional observations from a re-analysis of the deposited data

Results flagged for a closer look

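Among the 14 groups of values (7 members in 2 genotypes), 2 held a library far from the others by Dixon's criterion, which chance meets in about 1 of 20 groups. Epb41l2 was 1923 normalised counts in Nestin;BrafKE/+ replicate 4, against 1697 to 1732 in the other 3 mutants. Epb41l5 was 159.7 in Nestin;BrafKE/+ replicate 3, against 189.7 to 194 in the others.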

How the results depend on the processing

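Epb41 passed the threshold under 20 of 20 alternatives, with adjusted p between 4.97e-05 and 0.0204 (limma), the highest without Nestin;BrafKE/+ replicate 1. The order of levels per kilobase of the union of exons held in every library for 6 of 6 pairs, also within each genotype and with 1 library left out, but for 4 pairs with the longest transcript and 5 with the longest coding sequence as the length. The number of members past the threshold was 2 in place of 1 without the series term. The number of genes past it was 466, and it was 2260 without the series term, 165 with 4 name prefixes as the term, 258 with array quality weights, and 42 to 369 when 1 library was left out, the fewest without Nestin;BrafKE/+ replicate 1. It also dropped more than 1.5 times without Nestin;BrafKE/+ replicate 3 (165), Braf+/+ replicate 1 (281) and Braf+/+ replicate 4 (97). The replicate block in place of the series term gave 1405 genes, although the numbers do not pair the samples, since 1 of 4 mutants correlated best with the control of its own number. Epb41l5, at -0.0027 on the log2 scale, changed sign with array quality weights (0.0041) and lay between -0.072 and 0.12 with 1 library left out. Fewer samples enter the fits without a library. Control replicates 1 and 2 had a name prefix that no mutant shared. With 4 name prefixes as the term they therefore added nothing to the estimated genotype difference. The cause of the other differences was not tested. Median-ratio scaling and quantile normalisation left the median log2 fold change of all genes at 0.0003 and 0.0026. Depth is unknown from these values, and small differences of Epb41l4a and Epb41l5 were not detectable with these libraries.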
